A study of Arabidopsis thaliana with 14 samples.

Results

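DFR (AT5G42800), UF3GT (AT5G54060) and AT4G14090 are genes of the last steps of anthocyanin synthesis in Arabidopsis thaliana. They were taken by name with earlier results of these data known, so their p-values are not tests of genes chosen in advance. Each was read from the 1 probe set that the probe table pairs with that gene alone. They make up 3 of the 13286 genes that have such a probe set on the array. Transcripts were measured in whole seedlings at 7 dpg with 1-colour whole-genome arrays, as linear signal intensities of probe sets. NdelYDA seedlings (4 arrays) expressed a form of the kinase YODA (YDA) with an N-terminal deletion, named NB89 in the labels. Labels of some of these samples give the Ler ecotype and say that stomata were lacking. The yda seedlings (4 arrays) were mutant in YDA, and their labels give no ecotype. The series title speaks of loss and gain of YODA function. The controls were Ler ecotype seedlings (3 arrays) and seedlings of line CS9159 in the C24 ecotype (3 arrays). NdelYDA was therefore set against Ler, while setting yda against C24 was read from the design. The allele of yda and the promoter behind the NdelYDA form are not stated in the labels.

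Anthocyanins are red to blue pigments that plants store in the vacuole, and Arabidopsis seedlings make them in the shoot under strong light, sugar, cold or nutrient stress. The pathway runs from phenylalanine through the early flavonoid enzymes to dihydroflavonols, where one branch leads to flavonols and another, opened by DFR, leads to anthocyanins. Sugars and acyl groups are then added to the anthocyanidin, and the late genes are under the control of complexes of MYB, bHLH and WD40 proteins. YDA heads a mitogen-activated protein kinase cascade that limits how many epidermal cells become stomata. Whole seedlings mix many cell types, so fewer cells that make a transcript and less transcript per cell cannot be told apart here.

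Each array had been scaled so that its mean without the lowest and highest 2% of probe sets was 500. The 30th percentile of an array lay between 75.1 and 85.8, and a signal below it is called low here. A probe set was tested if at least 3 of the 14 arrays had a signal above it, as 17210 probe sets did, among them those of the 3 genes. DFR exceeded it on all arrays of every group. UF3GT did so on every array but replicates 1 and 3 of Ler. AT4G14090 did so only on NdelYDA replicates 1, 3 and 4, so it entered the tests through the group in which it was high and had to differ. No count over the 3 genes is used as support for that reason. The ratio of 3′ to 5′ GAPDH signal, an index of RNA integrity, was 0.992 to 1.21 in NdelYDA, 0.789 to 0.945 in yda, 1.05 to 1.11 in Ler and 1.02 to 1.46 in C24. The highest GAPDH ratio was that of C24 replicate 1. The same ratio for actin was 2.03 to 6.66 in NdelYDA and 1.89 to 5.99 in Ler, but 0.501 to 1.45 in yda and 0.306 to 1.12 in C24. For ubiquitin it was 1.23 to 1.46 in NdelYDA and 1.19 to 1.35 in Ler, and 1.41 to 2.09 in yda and 1.66 to 2.02 in C24. The actin ratios thus did not overlap between NdelYDA or Ler and yda or C24, and the part of this in comparisons across these groups was not tested. The GAPDH ratios did not overlap between yda and C24, and the part of this in yda minus C24 was not tested either. The lowest r between arrays of a group was 0.968 in C24, 0.980 in yda and 0.987 in NdelYDA and in Ler. RCA, the Rubisco activase of green tissue, was at 9998 to 12343 over the arrays, and EXPA7, a root hair expansin, at 72.9 to 186, so markers of both shoot and root gave signal.

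DFR encodes dihydroflavonol 4-reductase, the enzyme that commits dihydroflavonols to the anthocyanin branch. Its intensity was 418.7, 397.5, 439.7 and 422.1 in NdelYDA replicates 1 to 4, against 137.4, 134.8 and 108.8 in Ler replicates 1 to 3. Every NdelYDA array was above every Ler array, and the NdelYDA arrays lay close together. In yda the intensity was 196.8, 196.2, 235.3 and 176.1 in replicates 1 to 4, against 190.4, 206.2 and 166.3 in C24 replicates 1 to 3. These ranges overlapped. In order of the mean, DFR stood at 419.5 ± 17.3 (SD, n = 4) in NdelYDA, 201.1 ± 24.7 (n = 4) in yda, 188 ± 20.1 (n = 3) in C24 and 127 ± 15.8 (n = 3) in Ler. Only yda and C24 were neighbours whose arrays overlapped. On the scale of each array, its signal exceeded 64.1% to 66.4% of the probe sets in NdelYDA, against 35.3% to 39.3% in Ler.

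AT4G14090 encodes the glucosyltransferase UGT75C1, which adds glucose to the anthocyanin core at a position other than the one UGT78D2 uses. Its intensity was 118.5, 57.2, 97.9 and 94.0 in NdelYDA replicates 1 to 4, against 6.3, 5.8 and 9.6 in Ler replicates 1 to 3. All NdelYDA arrays were above all Ler arrays, though NdelYDA replicate 2 gave a low signal. The intensity was 27.4, 12.7, 21.1 and 6.7 in yda replicates 1 to 4, against 22.4, 31.0 and 7.3 in C24 replicates 1 to 3. All of these 7 values were low signals, and the groups overlapped over nearly their whole range. Group means were 91.9 ± 25.5 (SD, n = 4) in NdelYDA, 17.0 ± 9.12 (n = 4) in yda, 20.2 ± 12.0 (n = 3) in C24 and 7.23 ± 2.06 (n = 3) in Ler, which puts NdelYDA first, then C24, yda and Ler. Arrays of C24 and yda overlapped, as did those of yda and Ler, while each NdelYDA array exceeded all 10 others. Of all probe sets, 21.1% had every NdelYDA array above every Ler array and 25.4% above every C24 array. The share above all 10 others was not counted.

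UF3GT is named in the gene table as a flavonoid glucosyltransferase, and the enzyme, UGT79B1, is known to add xylose to the sugar of anthocyanins. Its intensity was 157.1, 129.9, 157.7 and 142.1 in NdelYDA replicates 1 to 4, against 74.5, 126.5 and 76.6 in Ler replicates 1 to 3. The groups did not overlap, but Ler replicate 2 came within 3.4 units of the lowest NdelYDA array. In yda it was 140.8, 118.5, 130.5 and 88.4 in replicates 1 to 4, against 105.1, 138.4 and 120.2 in C24 replicates 1 to 3. The yda values spanned the whole C24 range. Means were 146.7 ± 13.3 (SD, n = 4) in NdelYDA, 119.6 ± 22.7 (n = 4) in yda, 121 ± 16.7 (n = 3) in C24 and 92.5 ± 29.4 (n = 3) in Ler. In the order NdelYDA, C24, yda, Ler, the arrays of each neighbouring pair overlapped.

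**Figure D1:**
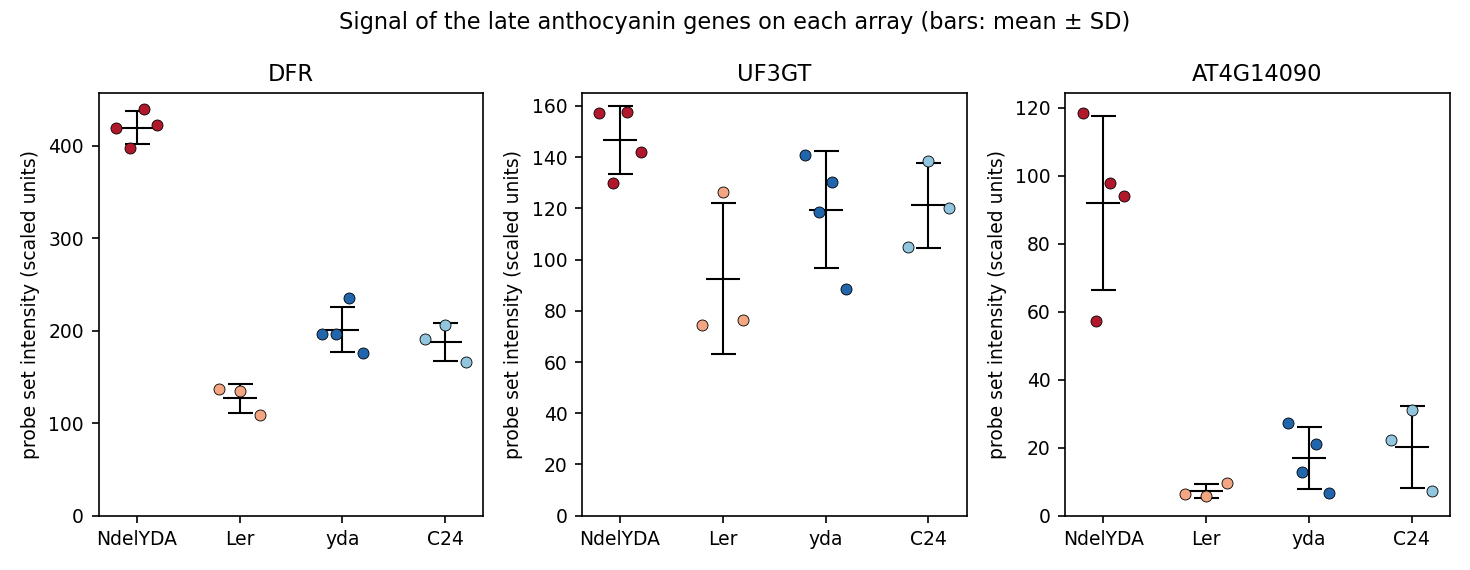
Probe set intensity (linear scale, arrays scaled to a trimmed mean of 500) of the 3 genes on each of the 14 arrays by group, with the mean and SD of each group. For DFR and AT4G14090 the 4 NdelYDA arrays lie above all others (397.5 and above, and 57.2 and above), while for UF3GT the Ler array at 126.5 lies just below the NdelYDA arrays. The share of all probe sets with NdelYDA above all other arrays was not counted.

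In NdelYDA seedlings, set against the Ler control, DFR, AT4G14090 and UF3GT rose. The changes were fitted with limma on log2(intensity + 16), with p-values adjusted over all 17210 probe sets, and folds are given on this scale, which makes the changes of low signals look smaller. DFR changed by 1.61 (SE 0.112, 95% interval 1.38 to 1.85, adjusted p = 1.6e-08), a 3.06-fold rise, and its mean intensities had a ratio of 3.30. AT4G14090 changed by 2.19 (SE 0.299, 95% interval 1.55 to 2.82, adjusted p = 3.0e-05), a 4.55-fold rise on the log2(intensity + 16) scale. As it entered the tests through NdelYDA, this and its other adjusted p-values involving NdelYDA are descriptions and not support. The mean intensities of AT4G14090 had a ratio of 12.7, which sets them against signals near the bottom of the Ler arrays. UF3GT changed by 0.61 (SE 0.175, 95% interval 0.24 to 0.98, adjusted p = 0.0127), a 1.53-fold rise. Of all probe sets tested, 15.4% were called higher in this comparison and 21.1% had every NdelYDA array above every Ler array. The median change over all probe sets was -0.01. A larger rise than that of DFR was found for 1.07% of the probe sets and than that of UF3GT for 6.24%.

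The size for AT4G14090 depended on the pseudocount, with changes of 3.48 at a pseudocount of 1 and 1.11 at 64, and with no filter on low signal its adjusted p was 2.66e-05. UF3GT was no longer called without Ler replicate 1 (0.50, adjusted p = 0.0733) or without Ler replicate 3 (0.52, adjusted p = 0.0686).

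Guard cell markers moved the other way in the same arrays. Of 7 listed, 4 had a probe set with 1 symbol and 1 identifier. In NdelYDA 3 of these 4 fell and AT2G16630 was not called, while in yda all 4 were called higher. This stood beside 16.6% of all probe sets called lower in NdelYDA and 19.1% called higher in yda. None of the 4 is at 0 as a group mean, but no detection calls were used, so this does not show that each transcript was present. CHX20, a cation exchanger of guard cells, was at 17.8 ± 14.4 (SD, n = 4) in NdelYDA against 137 ± 49.1 (n = 3) in Ler, a change of -2.22, but changed by 0.38 (adjusted p = 0.332) against C24. The summed intensity of the 4 markers was 817 to 951 in NdelYDA against 3254 to 3531 in Ler, and 6429 to 6879 in yda against 1778 to 3525 in C24. Most of the sum in Ler, yda and C24 was AT1G22690 alone, which averaged 2597, 4867 and 2035 there. In NdelYDA it averaged 347, below AT2G16630 at 442. The sum therefore does not show the 4 markers moving together. The root hair marker EXPA7 fell in NdelYDA by 0.71 (adjusted p = 0.00472), at 87.3 ± 10.03 (n = 4) against 154 ± 29.8 (n = 3) in Ler, but was not called against C24 (-0.42, adjusted p = 0.0602). RCA was at 10575 ± 521 in NdelYDA against 10674 ± 681 in Ler and was not called. The part of these shifts in the result for the 3 genes was not tested.

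**Figure D2:**
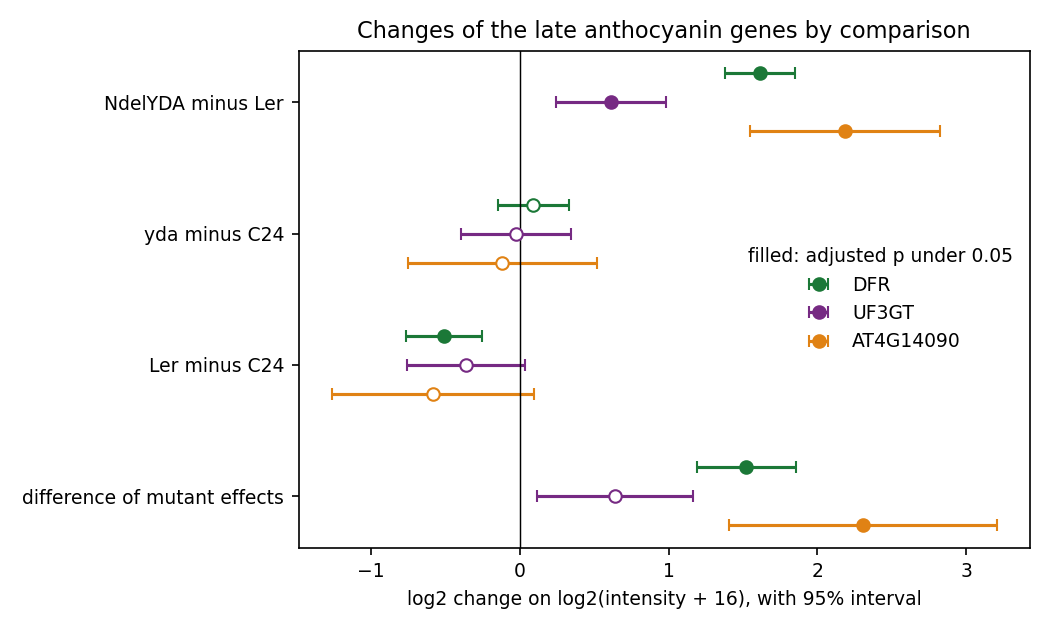
Log2 changes of the 3 genes on the log2(intensity + 16) scale with 95% intervals from the limma fit, for each comparison, where filled points have an adjusted p under 0.05. All 3 points for NdelYDA minus Ler are filled, from 0.61 to 2.19, beside 15.4% of all probe sets called higher. All 3 for yda minus C24 are open and lie near 0, where 43.4% of all probe sets were called in either direction. AT4G14090 was tested only through its NdelYDA signals, so these counts are not support.

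Set against C24 in place of Ler, DFR was higher in NdelYDA by 1.10 (adjusted p = 8.0e-07) and AT4G14090 by 1.60 (adjusted p = 0.00041), with no overlap between arrays, as for 25.4% of all probe sets. UF3GT, with a change of 0.25 (95% interval -0.12 to 0.62, adjusted p = 0.262), was not called. In that comparison 24.5% of all probe sets were called higher. C24 is another ecotype, so these values also hold the difference between ecotypes.

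In yda seedlings, none of the 3 genes differed from the C24 control beyond the spread between arrays. DFR changed by 0.09 (SE 0.112, 95% interval -0.15 to 0.33, adjusted p = 0.554). UF3GT changed by -0.03 (SE 0.175, 95% interval -0.40 to 0.34, adjusted p = 0.921), and AT4G14090 by -0.12 (SE 0.299, 95% interval -0.76 to 0.52, adjusted p = 0.784). None of the 3 had an unadjusted p under 0.05 either. In the same limma comparison 43.4% of all probe sets were called in one direction or the other. The interval for DFR reaches a 1.25-fold rise, that for UF3GT a 1.27-fold rise and that for AT4G14090 a 1.43-fold rise. At their lower ends the intervals reach 0.903 times the C24 level for DFR, 0.759 times for UF3GT and 0.592 times for AT4G14090 on the same scale, so changes within these bounds remain possible. Against Ler in place of C24, DFR was higher in yda by 0.60 (adjusted p = 0.00022) and the other two were not called, beside 24.2% of all probe sets called higher.

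The control ecotypes differed in DFR, which was lower in Ler than in C24, with a change of -0.51 (SE 0.119, adjusted p = 0.00304) and no overlap between arrays. UF3GT (-0.36, 95% interval -0.76 to 0.03, adjusted p = 0.142) and AT4G14090 (-0.59, 95% interval -1.27 to 0.09, adjusted p = 0.169) were not called. Of all probe sets, 16.2% were called lower in Ler and 19.5% had every Ler array below every C24 array. UF3GT was called without Ler replicate 2 (-0.58, adjusted p = 0.0216) and AT4G14090 without C24 replicate 3 (-0.87, adjusted p = 0.0494).

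The effect of NdelYDA over Ler was then set against the effect of yda over C24 in a test of the difference itself. The difference was 1.52 for DFR (SE 0.158, 95% interval 1.19 to 1.86, adjusted p = 2.6e-06) and 2.30 for AT4G14090 (SE 0.423, 95% interval 1.41 to 3.20, adjusted p = 0.00055). For UF3GT it was 0.64 (SE 0.247, 95% interval 0.12 to 1.16, adjusted p = 0.0574), which missed the threshold. Of all probe sets, 17.6% were called with a larger value in NdelYDA and 33.4% in either direction. The difference for AT4G14090 was 3.67 at a pseudocount of 1 and 1.17 at 64, and all of its signals outside NdelYDA were low. UF3GT passed after quantile normalization (0.64, adjusted p = 0.0453), without Ler replicate 2 (0.85, adjusted p = 0.00935), without yda replicate 1 (0.72, adjusted p = 0.0425) and without C24 replicate 1 (0.73, adjusted p = 0.0426).

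Within a group, the 3 genes were at an extreme on the same array in some cases and not in others. NdelYDA replicate 2 was the lowest of its group for each of the 3, as was yda replicate 4. C24 replicate 2 was the highest of its group for each. These orders were not particular to the 3 genes. C24 replicate 2 also had the highest median signal of its group. It was the highest for RCA and for the pathway genes CHIL, UGT78D2, UGT78D1 and AT1G06000 described below, but not for EXPA7. CHIL was also lowest in NdelYDA replicate 2 and in yda replicate 4, while UGT78D2 was lowest in neither. The share of all probe sets with these orders was not counted. The highest array was replicate 3 for DFR and UF3GT but 1 for AT4G14090 in NdelYDA, and replicate 3 for DFR but 1 for the other two in yda. The lowest C24 array was replicate 3 for DFR and AT4G14090 and replicate 1 for UF3GT. The Ler arrays showed no shared order, since the lowest was replicate 3 for DFR, replicate 1 for UF3GT and replicate 2 for AT4G14090. The spread was unequal between the genes, with the highest NdelYDA array 1.11 times the lowest for DFR, 1.21 times for UF3GT and 2.07 times for AT4G14090. In yda these ratios were 1.34, 1.59 and 4.09. As a description over the 14 arrays, which share their scaling, the log2 deviations from the group means had r = 0.53 between DFR and AT4G14090, 0.52 between DFR and UF3GT and 0.46 between UF3GT and AT4G14090. Among all tested probe sets, 4.79% followed DFR more closely in this measure than AT4G14090 did, and 5.47% more closely than UF3GT did, while 12.8% followed UF3GT more closely than AT4G14090 did. The AT4G14090 deviations outside NdelYDA are those of low signals.

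**Figure D3:**
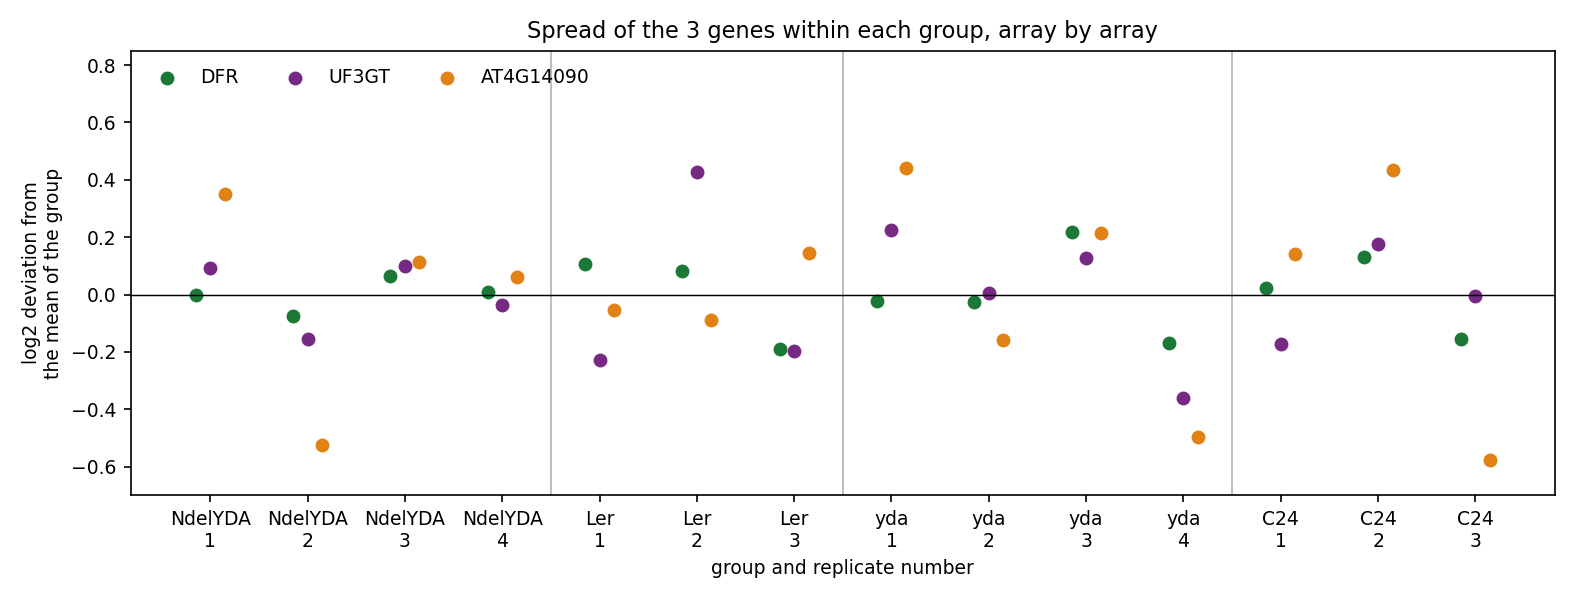
Deviation of each array from the mean of its group, in log2 units of intensity + 16, for the 3 genes, with the replicate number under each array. All 3 genes are below their group mean in NdelYDA replicate 2 and yda replicate 4 and above it in C24 replicate 2, and AT4G14090 has the widest spread. The share of all probe sets with such an order was not counted.

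Across the flavonoid pathway, 57 genes were listed by stage. Of these, 9 had a probe set given in the probe table with 1 symbol and 1 Entrez identifier. These were CHIL of the early steps, the 3 genes above with UGT78D2 and AT5MAT of the late steps, UGT78D1 and AT1G06000 of the flavonol branch, and BAN of the proanthocyanidin branch of the seed coat. No listed gene of the phenylpropanoid entry and no listed regulator had one, so these are not analysed here. Probe sets listed with more than 1 symbol or identifier were left out, so this does not show that the array lacks these genes. AT5MAT, an anthocyanin malonyltransferase, and BAN, an anthocyanidin reductase, gave low signals on most or all arrays and were not tested.

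Apart from the 3 genes, 4 pathway genes were tested, of which 1 was higher in NdelYDA than in Ler, beside 15.4% of all probe sets, and 3 were not called. CHIL, a chalcone isomerase-like protein that aids the early steps, was at 433.8, 325.6, 404.1 and 360.1 in NdelYDA replicates 1 to 4, against 199.8, 207.3 and 233.6 in Ler replicates 1 to 3. The groups did not overlap, and CHIL rose by 0.78 (SE 0.136, adjusted p = 0.00029). CHIL was nevertheless lower in NdelYDA than in C24, at 381 ± 47.7 (SD, n = 4) against 817 ± 186 (n = 3), a change of -1.05 (adjusted p = 1.2e-05), so of the 2 controls the rise held against Ler alone. UF3GT was likewise called higher against Ler but not against C24 (0.25, adjusted p = 0.262). DFR and AT4G14090 were higher in NdelYDA than in either control, though AT4G14090 entered the tests through NdelYDA. The values against C24 also hold the difference between ecotypes, which was -1.84 for CHIL in Ler minus C24.

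UGT78D2, which adds the first glucose to anthocyanidins and also serves flavonols, was at 554.6, 557.5, 612.5 and 549.3 in NdelYDA, against 480.7, 513.3 and 499.3 in Ler. All NdelYDA arrays were above all Ler arrays by a small margin, and the change of 0.19 (95% interval 0.01 to 0.36, adjusted p = 0.106) was not called. UGT78D2 was called in a limma fit of these groups alone (adjusted p = 0.0438) and after median scaling (0.21, adjusted p = 0.04997). UGT78D1, a flavonol rhamnosyltransferase, was at 202 ± 34.5 (SD, n = 4) in NdelYDA against 230.2 ± 41.5 (n = 3) in Ler. AT1G06000, known as UGT89C1, which adds rhamnose to flavonols at another position, was at 213 ± 4.44 against 229 ± 22.4 in the same groups. Neither was called (adjusted p = 0.667 and 0.498). Against C24, AT1G06000 was lower in NdelYDA (-1.31, adjusted p = 1.2e-08). Whether these 4 genes changed less than the 3 late genes was not tested.

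In yda 1 of the 4 other pathway genes was called lower and 3 were not called, where 24.4% of all probe sets were called lower. UGT78D1 was at 7.68 ± 5.52 (SD, n = 4) in yda against 37.3 ± 24.2 (n = 3) in C24, low signals on all 7 arrays, so the size of the change is not well measured. It was called lower at each pseudocount (adjusted p = 0.00228 as reported), with changes of -2.23 at 1, -1.11 at 16 and -0.48 at 64. CHIL was at 845 ± 83.8 in yda against 817 ± 186 in C24, with an adjusted p of 0.731, and was higher in yda than in Ler by 1.90 (adjusted p = 6.2e-09). Against Ler, 5 of all 7 tested pathway genes were called in yda, beside 59.7% of all probe sets in either direction. All 4 differed between the control ecotypes, with UGT78D1 higher in Ler than in C24 by 2.28 (adjusted p = 7.1e-06), where 21% of all probe sets were called higher. The other three were lower in Ler, as were 16.2% of all probe sets, with changes of -1.84 for CHIL (adjusted p = 7.5e-08), -1.21 for AT1G06000 (adjusted p = 9.1e-08) and -0.36 for UGT78D2 (adjusted p = 0.00433).

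**Figure D4:**
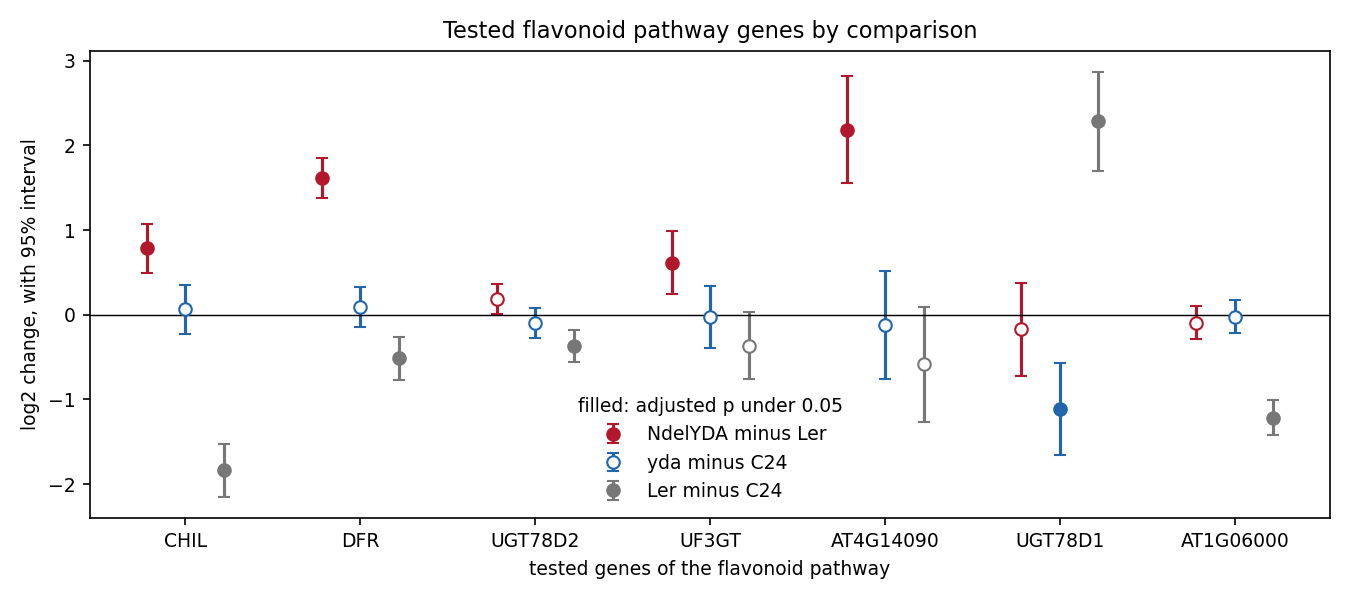
Log2 changes on the log2(intensity + 16) scale with 95% intervals for the 7 tested pathway genes in NdelYDA minus Ler, yda minus C24 and Ler minus C24, where filled points have an adjusted p under 0.05. DFR, AT4G14090, CHIL and UF3GT are filled for NdelYDA minus Ler, where 15.4% of all probe sets were called higher. UGT78D1 alone is filled for yda minus C24, where 43.4% were called in either direction. For Ler minus C24, 5 of the 7 are filled, where 21% of all probe sets were called higher and 16.2% lower. AT4G14090 entered the tests through NdelYDA, and UGT78D1 through NdelYDA and Ler.

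Probe sets of 1 gene were ranked by how closely they followed each of the 3 over the 14 arrays, as a description, among 9484 candidates that leave out the 3 genes themselves. DFR and AT4G14090 followed each other at r = 0.94, UF3GT and DFR at 0.75, and UF3GT and AT4G14090 at 0.73. Of the candidates, SAG29, a sugar transporter gene induced in senescence, was the closest to DFR (r = 0.96) and to AT4G14090 (r = 0.93). SAG29 averaged 1228 in NdelYDA, 237 in yda, 272 in C24 and 181 in Ler, the same high group as DFR. AT3G56360 came next for both (r = 0.95 and 0.93). DFR was further followed by AT1G35710, AT4G28703 and AT4G28420 (r = 0.94 to 0.95). AT4G14090 was further followed by M10, a late embryogenesis protein (r = 0.93), AT1G47400 (r = 0.92) and LCR67, a defensin (r = 0.91). M10 averaged 298 in NdelYDA and 8.73 or less in each other group. UF3GT had no pattern as close, with AT3G43430 at r = 0.85, AT1G73120 at 0.82, AT4G11970 at 0.82, AT1G44835 at 0.80 and AT4G11450 at 0.78. All of these correlations share the 14 arrays and their scaling.

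**Figure D5:**
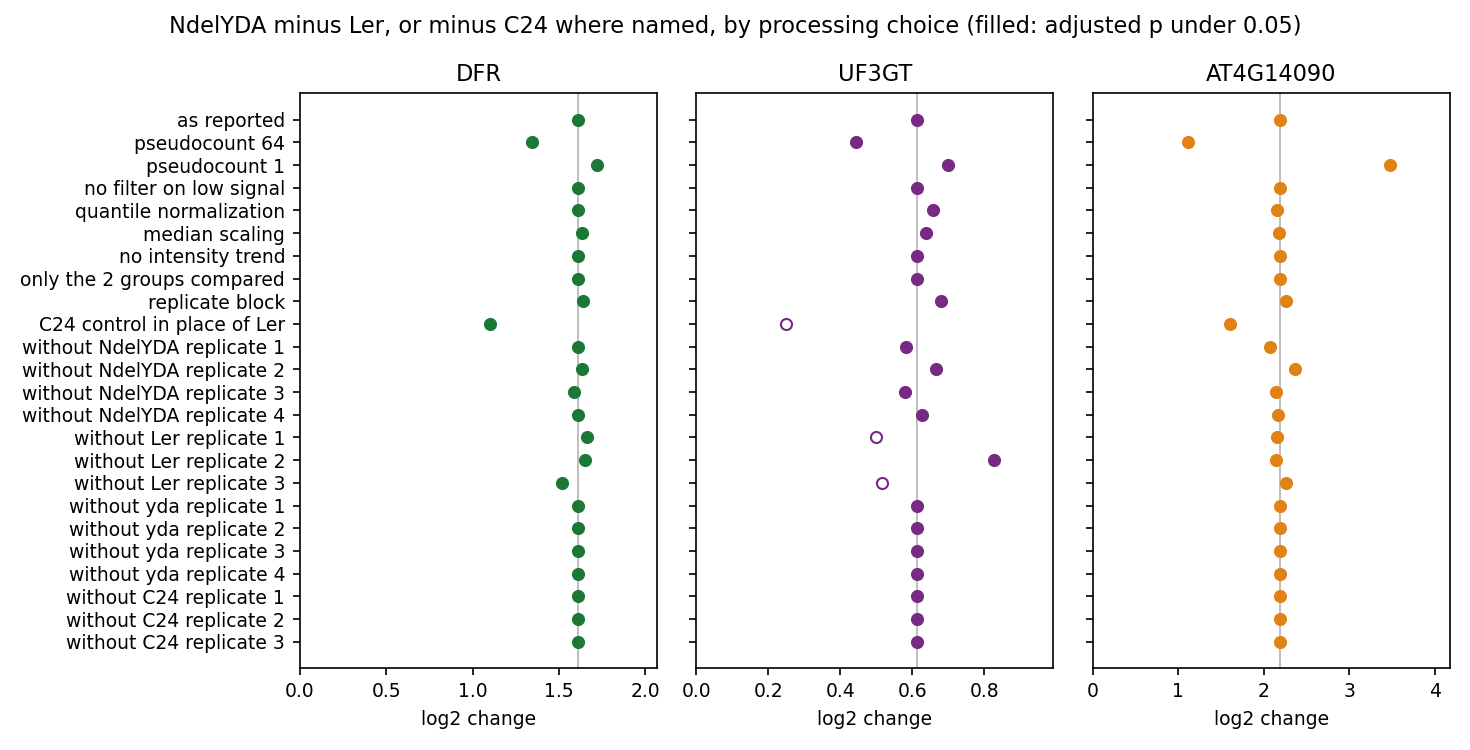
Log2 change of NdelYDA minus Ler for the 3 genes as reported and under each other processing choice, with 1 array left out, or against C24 in place of Ler, where filled points have an adjusted p under 0.05 and the grey line marks the reported value. Against Ler, DFR lies between 1.34 and 1.72 and AT4G14090 between 1.11 and 3.48, against C24 they are at 1.10 and 1.60, and all of these are filled, while UF3GT has 3 open points, against C24 and without Ler replicates 1 or 3.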

How the data were processed

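The authors deposited 1 linear intensity per probe set and array. Their scaling to a common trimmed mean is read from the values, and the software is not given in the sources used here. Of 22810 probe sets, 64 array controls were left out. Probe sets were named through the probe table and the TAIR10.1 gene table, by Entrez identifier (13436 with 1 gene and a locus), and no coordinates are given. Probe sets listed with more than 1 symbol or identifier were not used for naming. Tests used log2(intensity + 16) and 1 linear model with 4 group means over 14 arrays in limma 3.58.1 (R 4.3.3), with an intensity trend, two-sided, with Benjamini-Hochberg adjustment, and called at an adjusted p under 0.05. No detection calls were used. The number of arrays limits the precision. Labels call the mutant samples biological replicates but give the controls only a number, so p-values may partly measure technical spread. No arrays were identical. The 3 genes and all lists were chosen with earlier results of these data known. Named genes were the 3, the tested pathway genes, and the 5 probe sets of 1 gene with the highest r to each. The fit was tested on simulated data. Alternatives were other pseudocounts, filters, scalings, variance models, controls, a replicate block and single arrays left out. A planned search of promoters was not run, as no sequences were used here.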

Additional observations from a re-analysis of the deposited data

Results flagged for a closer look

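The effect of NdelYDA over Ler differed from that of yda over C24, by the test of the difference, for DFR (1.52 on the log2 scale, adjusted p = 2.6e-06), AT4G14090 (2.30, adjusted p = 0.00055) and CHIL (0.72, adjusted p = 0.00881). In this test 33.4% of all probe sets were called in either direction. AT4G14090 entered the tests through NdelYDA, so its adjusted p is a description and not support. CHIL also differed between the controls, by -1.84 in Ler minus C24. UGT78D2 had 1 NdelYDA array apart from the others, replicate 3 at 612.5 against 549.3 to 557.5. Chance flags about 1 in 20 groups, and 18 groups of 4 arrays were checked.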

How the results depend on the processing

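Of 267 recomputed values for the 3 genes, 247 kept their direction and their side of the threshold, and the cause of the other shifts was not tested. Many of the 267 could change only in their adjusted p. Leaving out an array outside a comparison, or changing only the filter or the variance model, leaves the log2 change as it was. The count is therefore not a measure of robustness. DFR and AT4G14090 stayed higher in NdelYDA than in Ler in every alternative run (1.34 to 1.72 and 1.11 to 3.48), and were at 1.10 and 1.60 against C24. UF3GT in that comparison ran from 0.50 to 0.83 with 1 array left out and was 0.25 against C24. In yda minus C24, values near 0 changed sign. UF3GT was 0.016 after quantile normalization, 0.035 after median scaling and 0.34 against Ler, and ran from -0.11 to 0.093 with 1 array left out. AT4G14090 was 0.039 after quantile normalization and 0.47 against Ler, and ran from -0.41 to 0.10. DFR reached 0.60 against Ler. For Ler minus C24, leaving out 1 array gave -0.58 to -0.25 for UF3GT and -0.87 to -0.37 for AT4G14090. The difference of effects for UF3GT was 0.64 after quantile normalization and ran from 0.52 to 0.85. Of 7 pathway genes, 1 was called in yda against C24 (43.4% of all probe sets) and 5 against Ler (59.7%). For the difference of effects 3 were called (33.4% of all), or 3 to 5 with 1 array left out. Of 632 recomputed values for other named genes, 597 kept direction and call, with the same limit on what such a count shows. Against C24, NdelYDA changed by -1.05 for CHIL, -0.18 for UGT78D2, 2.11 for UGT78D1 and 0.38 for CHX20, and AT1G06000 became called (-1.31). Against Ler, yda changed by 0.27 for UGT78D2, 1.19 for AT1G06000, -0.79 for CHX20 and 0.041 for RCA, and CHIL became called (1.90). Other sign changes were of values near 0. AT1G06000 in yda minus C24 was 0.024 after quantile normalization, 0.047 after median scaling and 0.017 with the replicate block. With 1 array left out it ran from -0.071 to 0.045, or from -0.14 to 0.0026 for the difference of effects, and CHIL in yda from -0.11 to 0.22. RCA was 0.037 in NdelYDA and 0.027 in yda after quantile normalization, and 0.016 and 0.034 after median scaling. It ran from -0.042 to 0.039 in NdelYDA and from -0.10 to 0.031 in yda with 1 array left out. Low signals limit AT4G14090 outside NdelYDA.

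Same-numbered arrays of NdelYDA and Ler did not deviate together (r from -0.02 to 0.02), nor did those of yda and C24 in every pair (-0.16 to 0.08). For Ler with C24 the r was 0.16, 0.10 and 0.03. Since not every pair passed 0.1, same-numbered arrays were not treated as paired, though so few pairs cannot exclude a pairing. With the replicate block, UF3GT in yda minus C24 was 0.039 (adjusted p = 0.888), no call for the 3 genes changed, and 5110 probe sets in place of 5503 were called in NdelYDA minus Ler.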

Other observations

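The pathway genes that were not tested gave low signals in most or all arrays. AT5MAT was at 52.4 ± 15.4 (SD, n = 4) in NdelYDA against 49.5 ± 8.20 (n = 3) in Ler, and at 57.7 ± 16.8 (n = 4) in yda against 59.4 ± 28.7 (n = 3) in C24. BAN was at 10.8 ± 2.10 in NdelYDA against 10.9 ± 3.97 in Ler, and at 10.6 ± 1.08 in yda against 7.97 ± 0.702 in C24.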
